A study of Homo sapiens with 2 samples.

Results

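The humanin-like genes are nuclear copies of the mitochondrial 16S ribosomal RNA gene, and their RNA level was examined in untreated HEK293T cells. The members were chosen by name, as genes of the MTRNR2L family, and the high TPM of 2 of them was known when the family was picked. Of the 10 listed members, 6 had a row that could be read here, out of 57736 genes in the series. MTRNR2L1, MTRNR2L3, MTRNR2L6 and MTRNR2L10 were found by symbol. ENSG00000269028 and ENSG00000271043 were listed by identifier and are called MTRNR2L12 and MTRNR2L2 here, the symbols given with the list. The tables used do not pair MTRNR2L4, MTRNR2L5, MTRNR2L7 and MTRNR2L8 with an identifier, so the RNA of these 4 was not analysed here and only their place in the genome is described.

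The cells are a wild-type human line of embryonic kidney origin that carries the SV40 large T antigen, grown without treatment. Poly(A)+ RNA was sequenced with 50-base reads in 2 libraries that form 1 group, so no condition was compared with another. The libraries held 10593491 and 10104118 estimated counts. The labels do not say whether they came from separate cultures, so their spread may be technical. Of 8 kidney epithelium markers, only PAX2 and LRP2 reached a TPM of 1 in both libraries, against both of the keratins KRT8 and KRT18. The fibroblast marker COL1A1 also did, with a TPM of 10.3 and 7.51, close to KRT8 with 8.57 and 7.56. The fibroblast marker DCN (0.17 and 0.10) and the blood marker PTPRC (0.22 and 0.11) did not.

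Humanin is a short secreted peptide whose reading frame lies inside the mitochondrial 16S rRNA gene, MT-RNR2. It was described as protecting neurons from death, and it is known to act through cell surface receptors and by binding pro-apoptotic proteins of the BCL2 family. Fragments of mitochondrial DNA have repeatedly been copied into nuclear chromosomes during evolution, and the MTRNR2L genes are copies that hold a humanin-like reading frame. A short read of such RNA can fit several copies as well as their source, and the deposited estimates share such reads out among the genes they fit.

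The reading frames are printed first, since the frame is what gives these genes their name and shows how far the copies have moved from the source. It spans 75 bases of MT-RNR2, from position 963 to 1037 of the 1559-base rRNA gene, and holds 24 codons and a stop codon. The sequences below come from the GRCh37 genome and run 5′ to 3′. Capitals mark bases that differ from MT-RNR2.
MT-RNR2: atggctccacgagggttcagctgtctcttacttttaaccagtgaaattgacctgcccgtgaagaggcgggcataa
MTRNR2L12: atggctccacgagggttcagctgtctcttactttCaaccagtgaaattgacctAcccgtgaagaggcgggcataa
MTRNR2L1: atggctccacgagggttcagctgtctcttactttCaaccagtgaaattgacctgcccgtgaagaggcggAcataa
MTRNR2L6: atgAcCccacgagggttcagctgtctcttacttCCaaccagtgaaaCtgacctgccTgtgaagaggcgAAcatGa
MTRNR2L3: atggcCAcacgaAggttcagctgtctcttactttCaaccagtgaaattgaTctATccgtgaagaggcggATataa
MTRNR2L10: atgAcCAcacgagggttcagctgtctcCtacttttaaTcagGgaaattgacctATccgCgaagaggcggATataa
They lie at chrM:2633-2707 (plus strand), chr3:96336043-96336117 (minus), chr17:22023388-22023462 (plus), chr7:142375063-142375137 (plus), chr20:55934021-55934095 (minus) and chrX:55208353-55208427 (minus), in the order printed. For MTRNR2L1, MTRNR2L6, MTRNR2L3 and MTRNR2L10 the positions equal the annotated coding sequence with its stop codon.

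The frame was best kept in MTRNR2L12 and MTRNR2L1, each with 2 substitutions. These changed 1 and 2 of the encoded amino acids in the standard genetic code, where substitutions that keep the amino acid are not counted. MTRNR2L6 and MTRNR2L3 each had 9 substitutions, which changed 4 and 5 amino acids, and MTRNR2L10 had 11, which changed 7. All 5 copies kept the start codon, had no inserted or deleted base in the frame and reached their first stop at codon 25. The match of the MTRNR2L2 locus to the rRNA ended at position 1027, inside the frame, so its frame is not printed. Among the loci of members without RNA values, the MTRNR2L8 frame had 2 substitutions, those of MTRNR2L5 and MTRNR2L7 had 9 and 12, and MTRNR2L4 had 11 with 1 base missing.

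The 6 genes with RNA values lie on different chromosomes. MTRNR2L1 is annotated on GRCh37 at chr17:22022437-22023991 on the plus strand, MTRNR2L6 at chr7:142374104-142375550 (plus), MTRNR2L3 at chr20:55933496-55934878 (minus) and MTRNR2L10 at chrX:55207824-55208944 (minus). The annotation used does not name MTRNR2L12 or MTRNR2L2, and their loci are the matches to the 16S rRNA gene that lie between the neighbours RefSeq lists for these symbols. The MTRNR2L12 locus is chr3:96336032-96337079 (minus), between RNU6-1094P and RPL18AP8. The MTRNR2L2 locus is chr5:79945841-79946866 (minus) between LINC01337 and MSH3. The deposited transcript lengths of 1020 bases for MTRNR2L12 and 1037 for MTRNR2L2 differ a little from these spans of 1048 and 1026 bases. MTRNR2L3 lies in an intron of RAE1, a nuclear export factor gene, on the opposite strand. MTRNR2L1 shares 103 exonic bases with the lncRNA gene ENSG00000243655 on the opposite strand. No other annotated gene overlapped MTRNR2L12, MTRNR2L6 or MTRNR2L10.

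Aligning MT-RNR2 to the nuclear genome gave 73 matches, 25 of them over at least 1000 aligned bases. The loci that the annotation does not name were taken from these matches, and the identity of every member was read from them. MTRNR2L12 was the most similar of the members with RNA values, with 95.0% identity over 1048 aligned positions that cover 67.2% of the rRNA from its first base. MTRNR2L2 followed with 94.5% over 1027 positions. MTRNR2L1 had 88.4% over the whole rRNA, MTRNR2L6 had 84.9%, MTRNR2L10 had 80.4% and MTRNR2L3 had 78.7%. The alignments of MTRNR2L10 and MTRNR2L3 run past the annotated genes, and within the genes the identity was 82.8% and 82.3%. MTRNR2L12 and MTRNR2L2 were 96.4% identical to each other, and 89.1% identical to MTRNR2L1 (both pairs). Of the members without RNA values, the MTRNR2L8 locus had 93.0% identity, and MTRNR2L4, MTRNR2L5 and MTRNR2L7 had 78.8%, 78.3% and 79.2%.

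Identity was uneven along the rRNA. In windows of 100 bases it ranged from 89 to 99% for MTRNR2L12 and from 87 to 99% for MTRNR2L2. It ranged from 78 to 97% for MTRNR2L1, from 73 to 95% for MTRNR2L6, from 65 to 94% for MTRNR2L3 and from 64 to 93% for MTRNR2L10. The lowest window of MTRNR2L6 and that of MTRNR2L3 were both centred at position 701, and so was that of the MTRNR2L4 locus.

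**Figure D1:**
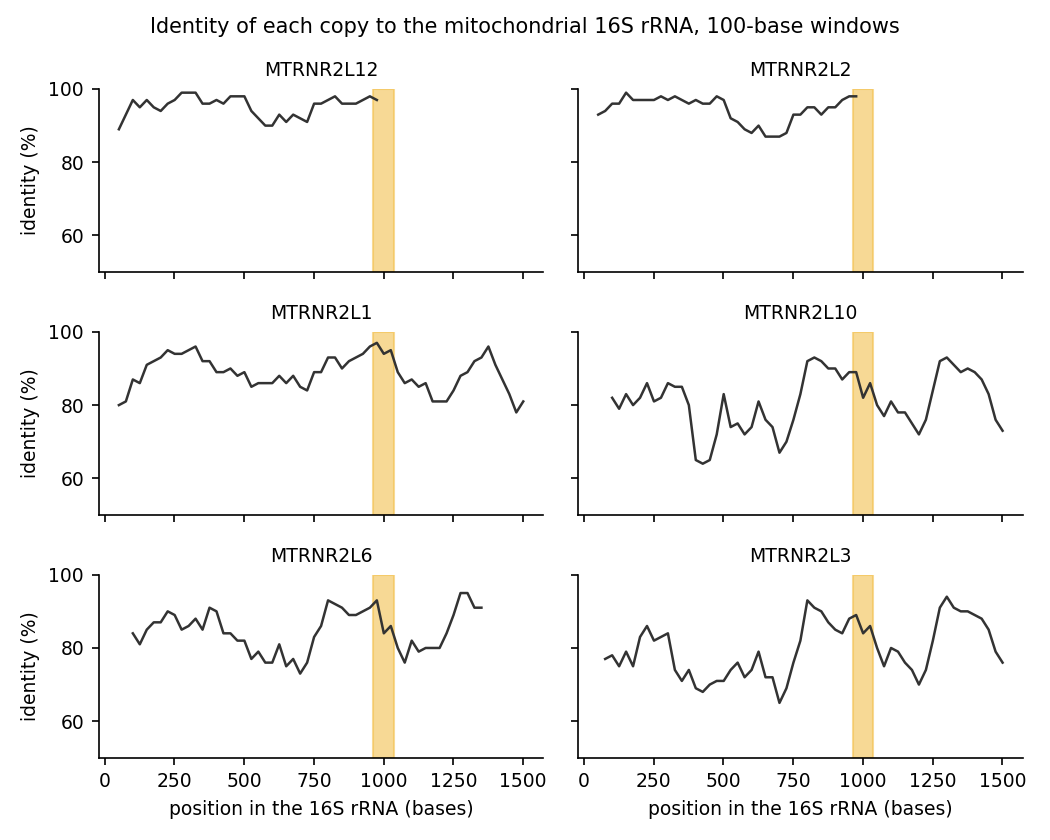
Identity to MT-RNR2 (%, vertical axis from 50 to 100) in windows of 100 bases moved by 25 bases, against position in the 16S rRNA (bases), for the 6 members with RNA values. The shaded band is the humanin frame, from 963 to 1037. MTRNR2L12 and MTRNR2L2 stay at 87% or more and end before the 3′ part of the rRNA, whereas MTRNR2L10 and MTRNR2L3 drop to 64 and 65%.

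How much of each copy a read could share with another sequence was then counted over stretches of 50 bases, the read length. In MTRNR2L12, 15.3% of 999 stretches were found exactly in the mitochondrial chromosome and 41.6% in that chromosome or in another of the 10 loci. In MTRNR2L2 these shares were 7.27% and 42.1% of 977 stretches. They were 0.730% and 2.32% in MTRNR2L1, 1.21% and 2.24% in MTRNR2L10, 0.429% and 1.00% in MTRNR2L6, and 0 and 0.825% in MTRNR2L3. The longest exact run shared with the mitochondrial chromosome was 99 bases in MTRNR2L12, 75 in MTRNR2L2, 62 in MTRNR2L10, 60 in MTRNR2L1, 55 in MTRNR2L6 and 45 in MTRNR2L3. Shared stretches were thus concentrated in MTRNR2L12 and MTRNR2L2, although most 50-base stretches of every member were particular to it among the sequences compared. Nuclear matches to MT-RNR2 outside the 10 loci were not among these sequences. The counts are of exact matches, and an aligner that allows mismatches places more reads in several places.

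The RNA levels spanned more than 3 orders of magnitude. TPM is a level corrected for transcript length and for the size of the library. MTRNR2L12 had a TPM of 8330 in replicate 1 and 9256 in replicate 2, and ranked 7 among all genes by its mean of 8793 ± 655 (SD, n = 2). MTRNR2L2 had a TPM of 7886 and 8340, a mean of 8113 ± 321 (SD, n = 2) and rank 8. Within each library MTRNR2L12 was above MTRNR2L2, with a TPM ratio of 1.06 in replicate 1 and 1.11 in replicate 2 (1.08 ± 0.0379, SD, n = 2), and their deposited TPM intervals were apart in both. Across libraries the values met, as replicate 1 of MTRNR2L12 was just below replicate 2 of MTRNR2L2.

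The other 4 members were far lower. MTRNR2L1 had a TPM of 382 and 508, a mean of 445 ± 89.1 (SD, n = 2), which was 18.2-fold below MTRNR2L2. MTRNR2L10 had a TPM of 99.6 and 114, a mean of 107 ± 10.2 (SD, n = 2). MTRNR2L6 had a TPM of 5.18 and 6.84, and MTRNR2L3 had 2.41 and 1.85. From MTRNR2L2 downward, each neighbouring pair in this order was separate in the replicates. For MTRNR2L6 and MTRNR2L3, the lowest pair, the deposited TPM intervals touched in replicate 1, where the lower bound of MTRNR2L6 was 3.48 and the upper bound of MTRNR2L3 was 3.49. All 6 members had a TPM of at least 1 in both libraries, as did 27.7% of all genes. In estimated counts the members ranged from 60383 and 64606 for MTRNR2L12 to 24.0 and 17.7 for MTRNR2L3, so the low members rest on few reads.

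**Figure D2:**
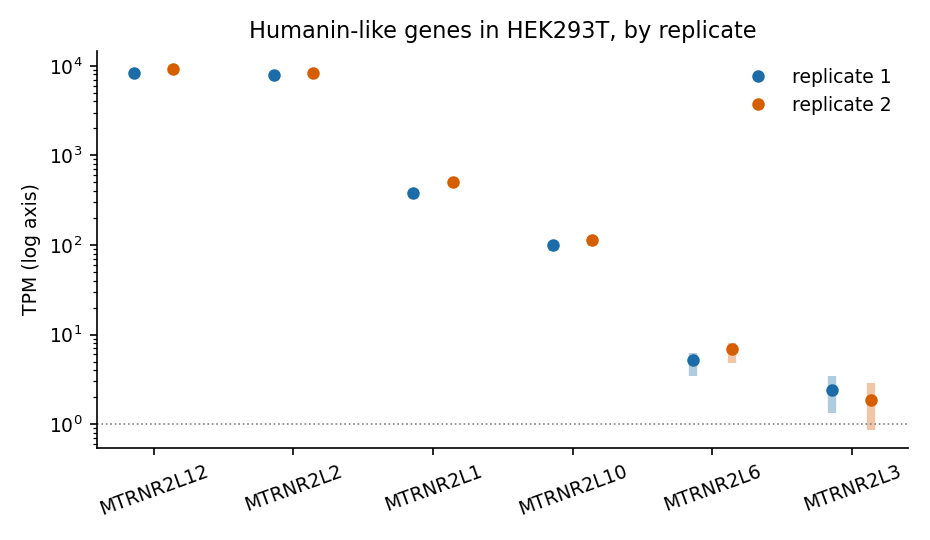
TPM of the 6 humanin-like genes (log axis), with a point for each replicate and bars for the deposited TPM interval of that replicate, which are narrower than the points for the high members. The dotted line is a TPM of 1. MTRNR2L12 and MTRNR2L2 sit between 7886 and 9256, and MTRNR2L3 near 2.

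The 6 members together held 1.75% ± 0.108 of the TPM (SD, n = 2), with 1.67% in replicate 1 and 1.82% in replicate 2. In estimated counts, which are not scaled by length, the share was 1.23% ± 0.0860 (SD, n = 2). MTRNR2L12 and MTRNR2L2 made up 97.1 and 96.5% of the family's TPM in the replicates. The values used here hold no estimate for MT-RNR2 or the other genes of the mitochondrial chromosome, and the genes used added up to 100% of the TPM in each library. The TPM, ranks and shares of the members are therefore relative to these genes alone, and no level of the copies was set against that of their source. Whether reads of MT-RNR2 could be counted to a member is not known, since the reference used for counting is not given in full. For comparison, 390 nuclear copies of mitochondrial protein genes held 9.95% ± 0.349 of the TPM (SD, n = 2). The highest of these was MTATP6P1 with a TPM of 21316 and 19997, above each member. MTATP8P1, MTCO2P12, MTCO3P12 and MTCO1P12 followed with mean TPM values from 14937 to 9701, each also above MTRNR2L12.

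The order of the RNA levels was close to the order of likeness to the rRNA. Across the 6 members with RNA values, identity and log2(mean TPM + 1) gave a Pearson's r of 0.89 and a Spearman's rho of 0.94. The 4 members without RNA values are not in this order, among them MTRNR2L8 with 93.0% identity. These values describe genes that share reads and libraries, so no p-value is attached. Without MTRNR2L12 and MTRNR2L3, the members farthest from the median identity, r was 0.77 over 4 members. This kept MTRNR2L2, which is 96.4% identical to MTRNR2L12 and close to it in level. The high level of MTRNR2L12 and MTRNR2L2 was known when the family was picked, and no r without both is given here. MTRNR2L10 and MTRNR2L6 broke the order, as MTRNR2L10 had the lower identity and the higher level. MTRNR2L10 also had the longer exact run, 62 against 55 bases, and the larger share of exact stretches. The share of stretches found in the mitochondrial chromosome had a Spearman's rho of 0.94 with the level, with MTRNR2L1 and MTRNR2L10 out of order. The part of mitochondrial rRNA reads in these levels was not tested.

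**Figure D3:**
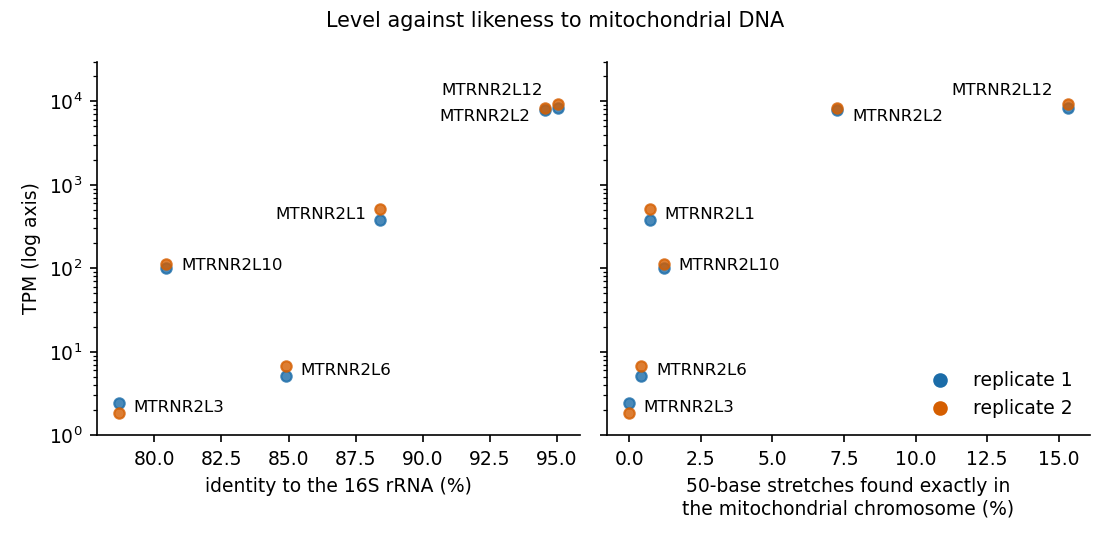
TPM (log axis) of each member in both replicates against its identity to MT-RNR2 in percent (left) and against the percent of its 50-base stretches found exactly in the mitochondrial chromosome (right). MTRNR2L12 and MTRNR2L2, at 95.0 and 94.5% identity, lie at 7886 TPM or more, and MTRNR2L3, at 78.7%, lies near 2.

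The deposited posterior SD describes how uncertain the sharing of reads between genes was. All 6 members had a posterior SD above 0 in both replicates, against 51.1% of the 17920 genes with at least 10 summed counts. Relative to the count it was small for the abundant members. For MTRNR2L12 it was 138 and 148 counts, 0.229% of the estimate in both replicates, and for MTRNR2L2 it was 134 and 139 counts, or 0.231 and 0.235%. For MTRNR2L1 it was 0.486 and 0.460%, and for MTRNR2L10 1.46 and 1.33%. It rose to 5.86 and 4.85% for MTRNR2L6 and to 13.5 and 18.5% for MTRNR2L3. The relative uncertainty was therefore largest where the counts were lowest. For MTRNR2L12, MTRNR2L2, MTRNR2L1 and MTRNR2L10 the TPM itself lay above the deposited interval in both replicates. The same held for 17.8% of all genes with at least 1000 summed counts, so for such genes the bounds are not a range around the level as printed. In the authors' table of pooled reads, the estimated count of each member was within 1% of the sum of the replicates, with the largest deviation at MTRNR2L3 (0.862%).

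The replicates were then set against each other gene by gene, by an exact binomial test (two-sided) on rounded counts that took the TMM-scaled library sizes into account, with p-values adjusted over the 17920 genes. This compares libraries, not conditions. All 6 members were tested, and 3 of them differed at an adjusted p of 0.05, each higher in replicate 2. Of all genes tested, 3.87% differed in either direction and 2.10% were higher in replicate 2. Among the 4821 genes with at least 1000 summed counts, where the test can detect smaller ratios, 6.74% differed. Of the 4 members at this depth, MTRNR2L12, MTRNR2L2 and MTRNR2L1 differed.

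The largest difference was at MTRNR2L1, with 4299 counts in replicate 1 and 5503 in replicate 2. Its log2 ratio of scaled counts was 0.43 (exact binomial test, adjusted p = 1.75e-46). Of the 4821 deeply counted genes, 13 (0.270%) had a ratio at least as far from 0 in either direction, MTRNR2L1 included. MTRNR2L12 had a log2 ratio of 0.17 (exact binomial test, adjusted p = 1.08e-97), a distance reached by 8.90% of these genes. MTRNR2L2 had 58169 and 59231 counts and a log2 ratio of 0.10 (exact binomial test, adjusted p = 1.92e-31), a distance reached by 27.7% of these genes. The small p-values of MTRNR2L12 and MTRNR2L2 thus go with modest ratios and very large counts, and the binomial test leaves out the spread between libraries beyond counting.

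MTRNR2L10 had 797 and 879 counts and a log2 ratio of 0.22, with an adjusted p of 0.0519 in the exact binomial test, just outside the threshold. It passed under 2 other settings, at 0.0496 with RLE size factors and at 0.0495 when only genes with 100 or more summed counts were tested. MTRNR2L6 had 54.1 and 68.7 counts and a log2 ratio of 0.43 (exact binomial test, adjusted p = 0.527). MTRNR2L3 had a log2 ratio of -0.33 (exact binomial test, adjusted p = 0.907), and at this depth a difference of this size was not detectable. In all, 5 of the 6 log2 ratios were above 0, as were 50.1% of all genes tested. The median log2 ratio was 0.20 over the members and 0.00047 over all genes tested. The members can share reads, so their ratios are not independent of each other. The TPM intervals of the replicates did not overlap for MTRNR2L12, MTRNR2L2 and MTRNR2L1, 3 of 6 members, against 1.45% of all genes tested. Among the members the intervals were narrower, relative to the level, at higher counts. No share for deeply counted genes is given for them, so the 1.45% is not matched for depth. Of 40 tested nuclear copies of mitochondrial protein genes, 10 differed and 1 of these was higher in replicate 2, with a median log2 ratio of -0.08.

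**Figure D4:**
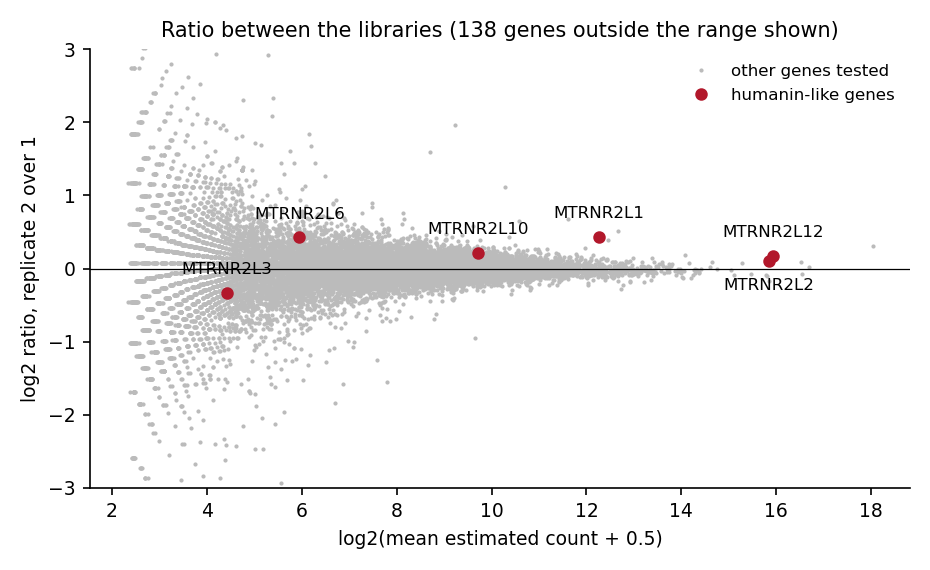
Log2 ratio of scaled counts, replicate 2 over replicate 1, against log2(mean estimated count + 0.5), for the genes tested (grey) and the 6 humanin-like genes (red). The vertical axis spans 3 units on either side of 0, and 138 genes lie outside it. MTRNR2L1 stands at 0.43 above the dense band of genes with similar counts, and MTRNR2L3 at -0.33 is within its band.

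The genes on the strand opposite to MTRNR2L3 and MTRNR2L1 differed in level from them in opposite directions. RAE1, which holds MTRNR2L3 on the opposite strand, had a TPM of 52.2 and 48.6 and was above MTRNR2L3. ENSG00000243655, which shares exonic bases with MTRNR2L1, had a TPM of 3.83 and 3.97 and was below MTRNR2L1. The sources used here do not say whether strand was used in counting. Reads of the 103 exonic bases shared by MTRNR2L1 and ENSG00000243655 may therefore not have been told apart. RAE1 and MTRNR2L3 share 0 exonic bases, so for them this concerns only reads from the RAE1 intron.

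The genes through which humanin is known to act were read as a fixed list. Of 5 receptor genes 3 were detected, that is, reached a TPM of 1 in each library. IL6ST, the shared signalling subunit gp130, had a TPM of 25.6 ± 1.26 (SD, n = 2). CNTFR and IL27RA, which form a receptor complex with it, had 3.92 ± 0.156 and 3.46 ± 0.0919 (SD, n = 2). FPR2, a formyl peptide receptor that binds humanin, had 0 counts in both replicates, where up to 3 counts would be allowed in each, and FPR3 had 0 and 1. Of 5 genes for binding partners 4 were detected. BAX and BID, pro-apoptotic proteins bound by humanin, had a TPM of 78.9 ± 3.66 and 26.7 ± 0.665 (SD, n = 2), and BCL2L11 had 25.6 ± 1.11 (SD, n = 2). TRIM11, a ubiquitin ligase that lowers humanin, had 57.9 ± 1.65 (SD, n = 2). IGFBP3, a secreted binding protein of insulin-like growth factors that also binds humanin, had a TPM of 0.25 and 0.42.

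Genes that make and mature the mitochondrial 16S rRNA were all detected where they had a row. The 8 genes for mitochondrial transcription and RNA processing had mean TPM values from 14.1 for the termination factor MTERF1 to 127 for the tRNA 3′ processing enzyme ELAC2, with 44.8 ± 1.94 for the RNA polymerase POLRMT (SD, n = 2). Of 14 genes for 16S rRNA modification and large subunit assembly 13 had a row, from DDX28 at 13.5 to DHX30 at 117, both RNA helicases. The 16S methyltransferases MRM2 and MRM3 had a TPM of 43.0 ± 7.09 and 28.7 ± 2.36 (SD, n = 2). Of 6 genes for mitochondrial RNA polyadenylation and decay, the poly(A) polymerase MTPAP was lowest at 21.5 and SLIRP, a stability factor, highest at 207. Of the 34 tested genes in the humanin and mitochondrial lists, 0 differed between the libraries after adjustment in the exact binomial test and 6 had an unadjusted p under 0.05. MRM2 came closest to the threshold, with a log2 ratio of -0.26 (exact binomial test, adjusted p = 0.0626). Each of the mitochondrial list genes was below MTRNR2L1, and their median levels by list, from 31.5 to 63.0 TPM, lay between MTRNR2L10 and MTRNR2L6.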

How the data were processed

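Reads of 2 HEK293T libraries were, per the labels and the study's methods, trimmed with Trimmomatic 0.36 and aligned with STAR 2.6.1c to GRCh37. The methods name featureCounts for counting, but the columns are those of RSEM, and RSEM 1.3.1 is named in the submitters' processing notes. Deposited by the authors were estimated counts (reads that fit several genes are shared out), TPM and FPKM values (scaled by length and depth), and scores for uncertainty, namely a posterior SD for each count and a lower and upper TPM bound whose confidence level is not given in the files. A table of pooled reads was also deposited by the authors. Transcript lengths came from the same tables.

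The members and lists were chosen with earlier results of these data known. Named were all members, the fixed lists, overlapping genes and the 5 other nuclear copies with the highest mean TPM, apart from 1 item that is not reported here. Gene symbols were matched for 96.1% of 57736 identifiers. Gene positions came from the GENCODE annotation lifted to GRCh37. MT-RNR2 was aligned to the genome with BLAST 2.17.0 (E-value at most 1e-20). RefSeq neighbours (GRCh38.p14) were used for names and order only. Library sizes were scaled by TMM in edgeR 4.0.16 on rounded estimated counts with filterByExpr. The binomial test used scipy 1.17.1 with Benjamini-Hochberg adjustment, and log2 ratios had 0.5 added counts. The code of the test was checked on counts simulated with counting noise only. That check had no further spread between libraries and no shared reads, so it does not cover these. With 1 group, no conditions were compared. Alternatives were other units, thresholds, normalizations, filters, stretch lengths and pseudocounts, and leaving out each replicate. Intervals and floors cover counting and the sharing of reads only, as PCR copies of a molecule are counted separately.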

Additional observations from a re-analysis of the deposited data

How the results depend on the processing

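No paired analysis was possible because both libraries belong to 1 group. The share of the library at the family was 1.23% in estimated counts (1.2288) and in posterior mean counts (1.22877), against 1.75% of TPM, and 1.67 to 1.82% without either replicate. The share of the family at MTRNR2L12 and MTRNR2L2 was 95.4% in estimated counts (95.427) and in posterior mean counts (95.426), against 96.8% of TPM, and 96.5 to 97.1% without either replicate. The members detected numbered 5 with a TPM of at least 5 or with a lower TPM bound of at least 1, and 6 otherwise. MTRNR2L10 also differed between the libraries with RLE size factors (exact binomial test, adjusted p = 0.0496) and with a summed count of at least 100 (0.0495). This made 4 members in each of these settings, where 696 and 503 of all genes differed. Over the other settings the adjusted p of MTRNR2L10 in the exact binomial test was 0.0519 to 0.0883. With posterior mean counts 446 of all genes differed, against 693, while the members that differed stayed at 3. With bounds of 2 posterior SDs around the posterior mean count, 5 members did not overlap between the replicates, against 3. No share over all genes is given for these bounds, so the 5 cannot be read as particular to the members. Exact stretches shared with another member or the mitochondrial chromosome made up 10.2% of all stretches at 50 bases, 16.1% at 36 and 33.0% at 20, as shorter stretches match more often. The correlation of level with identity was 0.89 to 0.90 under other units and pseudocounts and without either replicate, and 0.91 with identity within the span of the gene, an alternative chosen after the data were seen. MRM1 was not matched to a row. Where not stated, the cause of a change was not tested.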
